A study of Mus musculus with 6 samples.

Results

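The genes of the large subunit of the cytosolic ribosome were taken from the deposited expression table by symbol: Rpl followed by a number, with or without a, l or l1, or Rplp followed by 0, 1 or 2, and no pseudogene. This gave 52 of the 17920 genes listed, of which 46 are core genes of the subunit and 6 carry a name that ends in l or l1 and are paralogs of a core gene (Rpl3l, Rpl7l1, Rpl22l1, Rpl32l, Rpl36al and Rpl39l). They lie on 18 chromosomes. The libraries came from cells of the mouse cortex, dissected on embryonic day E13.5, cultured, and infected with lentivirus, which integrates into host DNA. The 3 control libraries (WT, as labelled, called Ctrl in the data columns) carried a control short hairpin RNA (shRNA), and the 3 knockdown libraries (KD) carried an shRNA against Ybx1, which encodes an RNA-binding protein that reads 5-methylcytosine in mRNA. WT is therefore not an untouched brain: both groups were in culture, both were infected from a hairpin vector, and both were selected with puromycin, which kills cells that lack the virus. The labels name the cortex in the titles and brain as the source, which of the hairpins of the study a KD library carried is not stated, and the sources do not say whether replicates came from separate litters.

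The large subunit forms the peptide bond and releases the new protein through a tunnel in its body. Its proteins are needed in nearly equal numbers, so their mRNAs are abundant and are usually regulated together, and many begin with a run of pyrimidines (a TOP motif) that ties their translation to growth signals. In the embryonic cortex, dividing progenitors have a high demand for new ribosomes.

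Depth was nearly equal, between 16294635 and 16497505 estimated counts per library, and 13669 genes were counted deeply enough to be tested. A gene is followed across libraries in CPM (normalised counts scaled to 1000000 in each library), and genes are compared with each other in TPM, which divides by transcript length. The quasi-likelihood test of edgeR was run over all genes tested, with Benjamini-Hochberg adjustment over them and a threshold of 0.05. Groups have n = 3. Ybx1 itself was at 618, 615 and 653 CPM in the WT libraries and 98.3, 92.2 and 158.8 CPM in the KD libraries (log2 fold change -2.43), so the knockdown was seen in every KD library and was weakest in replicate 3.

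Large-subunit mRNAs were lower in KD as a group, by a small amount and almost without exception in direction. Of the 50 genes tested, 32 fell past the threshold and 0 rose. The same call was made for 11.9% of all genes tested in the downward direction and for 12.0% in the upward direction. The median log2 fold change was -0.20, which is a fall of 12.7%, against -0.00 over all genes tested, and 46 of the 50 had a negative value. At an unadjusted p of 0.05, 38 were lower and 0 higher, where 2594 and 2591 of the 13669 genes tested were. DESeq2 called 31 lower and 0 higher, and 1337 lower and 1429 higher among all genes tested. In 39 of the 50 genes (78.0%) all KD libraries lay below all WT libraries, which held for 20.6% of all genes tested. The reverse held for 1, against 21.0% of all genes. Rpl39l and Rpl3l had too few counts to be tested.

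Together the 46 core genes made up 7.07%, 6.97% and 7.03% of all TPM in WT libraries 1, 2 and 3 and 6.56%, 6.39% and 6.53% in KD libraries 1, 2 and 3. The share was thus 7.03% ± 0.05 (SD, n = 3) in WT and 6.49% ± 0.09 in KD, and the groups did not overlap. These are shares of the RNA in a library. The amount per cell was not measured, and in bulk samples fewer cells of a type and less RNA per cell cannot be told apart.

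The shift was of like size in the KD libraries. Relative to its own WT mean, the median core gene stood at -0.19, -0.24 and -0.18 on the log2 scale in KD libraries 1, 2 and 3, and at 0.01, 0.00 and -0.01 in the WT libraries. The number of core genes below their WT mean was 41, 44 and 43 of 46 in the KD libraries and 19, 23 and 25 in the WT libraries. The share of all genes below their WT mean is not given here. KD library 2 was the lowest of the KD libraries for 37 of the 46 genes. Between libraries of the same replicate number, 43 of the 50 genes tested were lower in KD in all 3 pairs. With the replicate number as a block, 36 members were called lower, where 18.1% of all genes tested were. The number called depended on replicate 2: it was 15 without KD library 2 (6.15% of all genes tested were then lower) and 17 without WT library 2 (5.78%). Without both, in a comparison of 2 against 2 libraries added after seeing the data, only Rplp0 was called, with 0.678% of all genes, while 45 of 50 values were still negative and the median was -0.18.

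**Figure D1:**
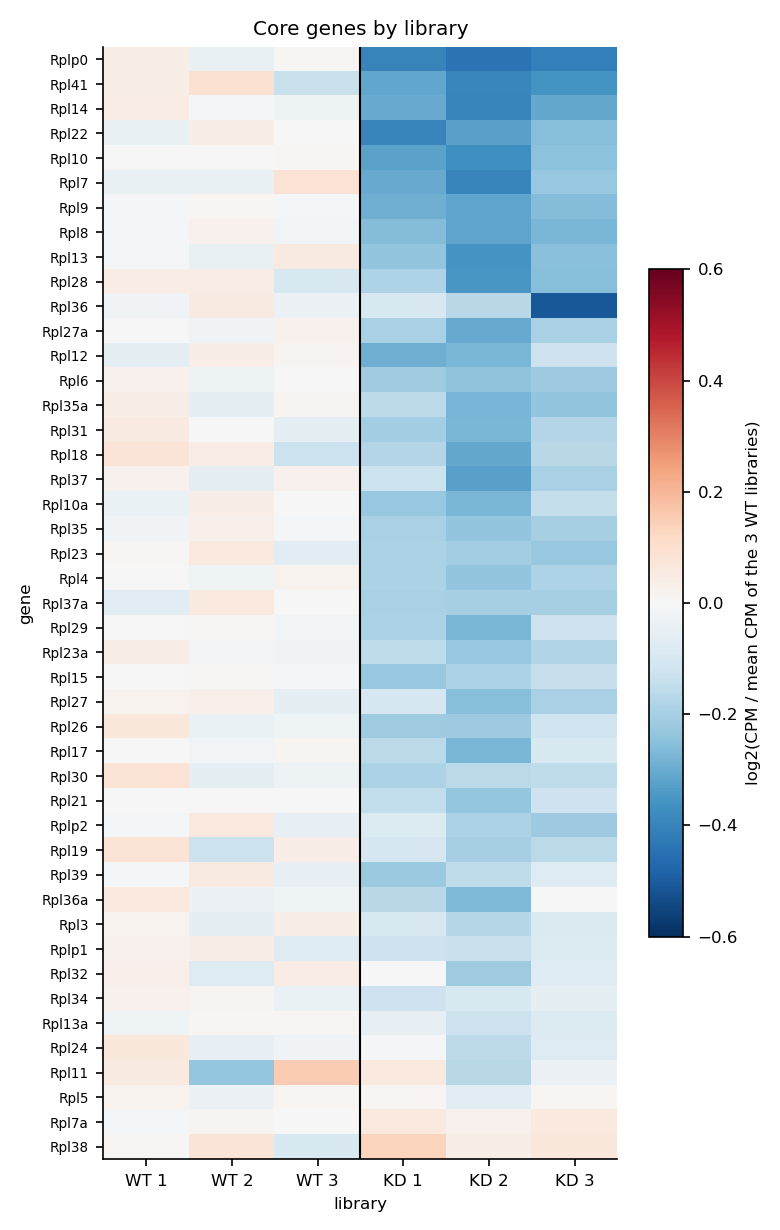
Heat map of log2(CPM divided by the mean CPM of the 3 WT libraries) for 45 of the 46 core genes (rows, ordered by log2 fold change) in the 6 libraries (columns). Blue is lower than the WT mean: most rows are blue in all 3 KD columns, Rpl36 is darkest in KD library 3 alone, Rpl11 is low in the libraries numbered 2 of both groups, and the bottom rows, Rpl7a and Rpl38, are not blue in KD.

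The stalk that recruits translation factors to the ribosome is built from Rplp0, the scaffold, and the small acidic proteins Rplp1 and Rplp2. Rplp0 (Entrez Gene 11837, chr5:115559467-115563729, GRCm38) had the largest fall of the core genes. It was at 1072, 1015 and 1053 CPM in WT and 791.5, 768.8 and 786.4 CPM in KD. The KD libraries lay well below WT and close together, and Rplp0 fell by 25.3% (log2 fold change -0.42 ± 0.04 SE, adjusted p = 5.13e-04). Rplp2 was at 153.6, 161.3 and 149.7 CPM in WT and 146.5, 135.9 and 132.9 CPM in KD. Rplp1, one of the most abundant of the mRNAs, was at 347, 351 and 324 CPM in WT and 313, 311 and 322 CPM in KD. For both the KD libraries were below the WT libraries by a narrow margin, without reaching the threshold (Rplp2 -0.16, SE 0.05, adjusted p = 0.0601, and Rplp1 -0.11, SE 0.05, adjusted p = 0.111). Rplp2 passed with the replicate block (adjusted p = 0.0213). Its counts were fractional in all 6 libraries, which marks reads divided between genes of like sequence. Rpl12, at the base of the stalk, fell (-0.23), and so did Rpl10a (-0.21), which forms the L1 stalk on the other side of the subunit, where used tRNA leaves.

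**Figure D2:**
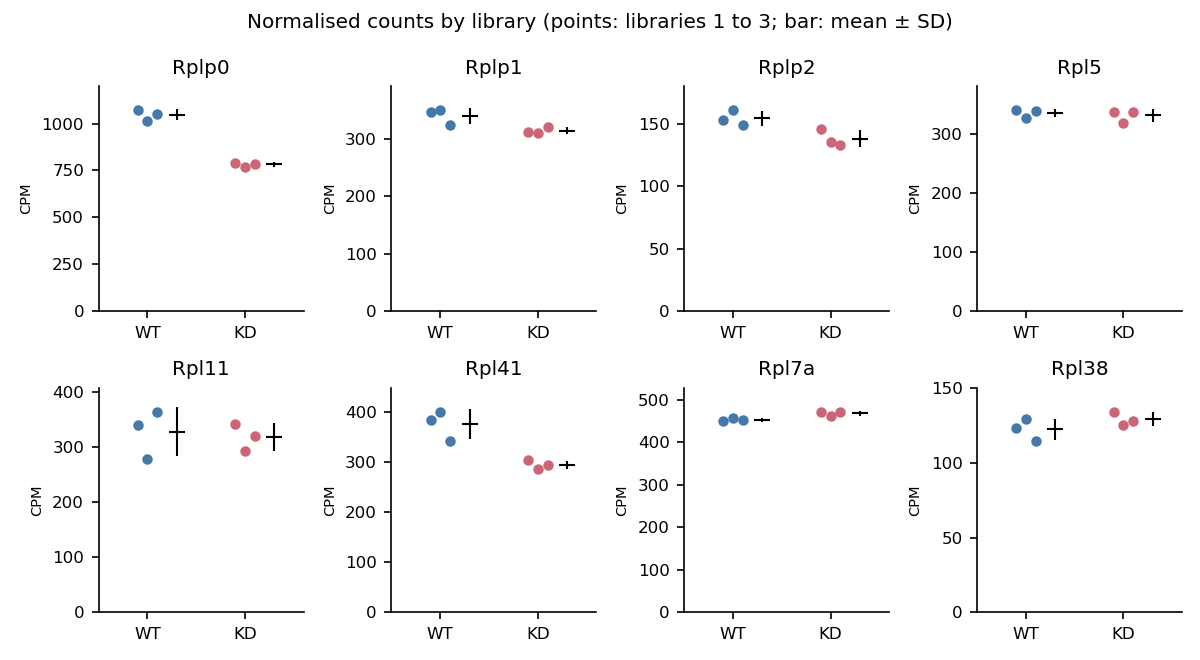
Normalised counts (CPM, vertical axis from 0) of 8 core genes in the WT and KD libraries, with points for libraries 1 to 3 and a bar for the mean ± SD (n = 3). Rplp0 and Rpl41 have no overlap between groups and the widest gaps, Rplp1 and Rplp2 have narrow gaps, Rpl5 and Rpl11 overlap, and Rpl7a and Rpl38 are as high or higher in KD.

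Rpl5 and Rpl11 bind the small ribosomal RNA of the large subunit and enter the subunit with it. When they are not built in, they bind Mdm2 and so raise p53. Neither passed the threshold. Rpl5 was at 340.0, 326.6 and 337.7 CPM in WT and 337.2, 318.9 and 337.0 CPM in KD, so the groups overlapped almost fully (-0.02, SE 0.04, adjusted p = 0.824). Its counts were fractional in all libraries. Rpl11 was at 341.2, 279.4 and 364.8 CPM in WT and 341.9, 292.7 and 320.9 CPM in KD. Both libraries numbered 2 were low, which widened the spread within each group, and the log2 fold change of -0.04 had an SE of 0.10 (adjusted p = 0.772). The SE of Rpl11 was thus about as large as the SD among the core genes, and the SE of Rpl5 was not.

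The proteins around the site of peptide bond formation and the tunnel mostly fell. Rpl10, which sits near that site and joins the subunit late, was at 517.1, 517.0 and 519.6 CPM in WT and 414.4, 401.5 and 437.2 CPM in KD. The WT libraries were almost identical and the KD libraries all lower (-0.31, SE 0.05, adjusted p = 0.00237). Rpl8 fell as well (-0.28), whereas Rpl3 did not pass (-0.12, adjusted p = 0.0983, and 0.0399 with the replicate block). Of the proteins that line the tunnel, Rpl4 (-0.20) and Rpl17 (-0.17) fell and Rpl39, the smallest of them, did not pass (-0.15, adjusted p = 0.0917). The call of Rpl17 was lost in 10 of the 22 alternatives listed with the processing. Around the mouth of the tunnel, where factors that guide the new protein dock, Rpl31 (-0.22), Rpl35 (-0.21), Rpl23a (-0.19) and Rpl26 (-0.18) fell. Rpl19, also at the mouth, had a negative value but did not pass (-0.15, adjusted p = 0.0989, and 0.0171 with the replicate block). WT library 2 of Rpl19, at 382 CPM, lay below KD library 1, at 390.0 CPM.

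Rpl41 and Rpl24 reach across to the small subunit. Rpl41, which encodes a very short, basic protein, was at 384.6, 400.4 and 342.7 CPM in WT and 303.2, 286.3 and 293.1 CPM in KD (-0.35, SE 0.06, adjusted p = 0.00495). The WT libraries varied more than the KD libraries, and no KD library reached the lowest of them. Rpl24 did not pass (-0.08, adjusted p = 0.311).

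Among the 26 core genes given no group above, 19 fell past the threshold. The largest falls were in Rpl14, Rpl22 and Rpl7. Rpl14 was at 231.4, 222.8 and 219.5 CPM in WT and 182.3, 169.9 and 181.5 CPM in KD (-0.34, SE 0.05, adjusted p = 0.00227). Rpl22 was at 236.7, 250.6 and 244.2 CPM in WT and 185.3, 194.7 and 204.1 CPM in KD (-0.32, SE 0.05, adjusted p = 0.0032). In both, the highest KD library lay clearly under the lowest WT library. The log2 fold changes of others that fell were -0.31 for Rpl7, -0.29 for Rpl9, -0.28 for Rpl13, -0.26 for Rpl28, -0.23 for Rpl27a, -0.22 for Rpl6, Rpl35a, Rpl18 and Rpl37, -0.21 for Rpl23, -0.20 for Rpl37a and Rpl29, -0.18 for Rpl15 and Rpl27 and -0.17 for Rpl30 and Rpl21. The genes mutated in Diamond-Blackfan anaemia include Rpl35a, Rpl5, Rpl11 and Rpl26, which is not a full list.

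Of the 7 that did not pass, 5 had negative values: Rpl36 (-0.25), Rpl36a (-0.14), Rpl32 (-0.09), Rpl34 (-0.09) and Rpl13a (-0.09). Rpl36 had a wide spread in KD. It was at 70.0, 73.6 and 69.4 CPM in WT and 66.4, 63.3 and 49.9 CPM in KD, with KD library 3 far below the others (adjusted p = 0.0949, and 0.0102 with the replicate block). The remaining genes, Rpl7a and Rpl38, went the other way in value, without passing.

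Rpl7a (Entrez Gene 27176) was at 449.0, 457.9 and 451.6 CPM in WT and 471.8, 461.6 and 471.9 CPM in KD, and it was the only member tested whose KD libraries all lay above the WT libraries. Its log2 fold change was 0.05 (SE 0.04, adjusted p = 0.40). Rpl38 (Entrez Gene 67671), the gene deleted in the Tail-short mouse mutant, was at 123.1, 129.2 and 114.8 CPM in WT and 134.4, 125.4 and 128.0 CPM in KD (0.08, SE 0.06, adjusted p = 0.347). In CPM its groups overlapped, since KD libraries 2 and 3 lay below WT library 2. In TPM they did not: Rpl38 was at 4578, 4821 and 4383 in WT and 5064, 5167 and 5229 in KD, with adjusted p = 0.0691 in limma-trend on log2(TPM + 1).

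**Figure D3:**
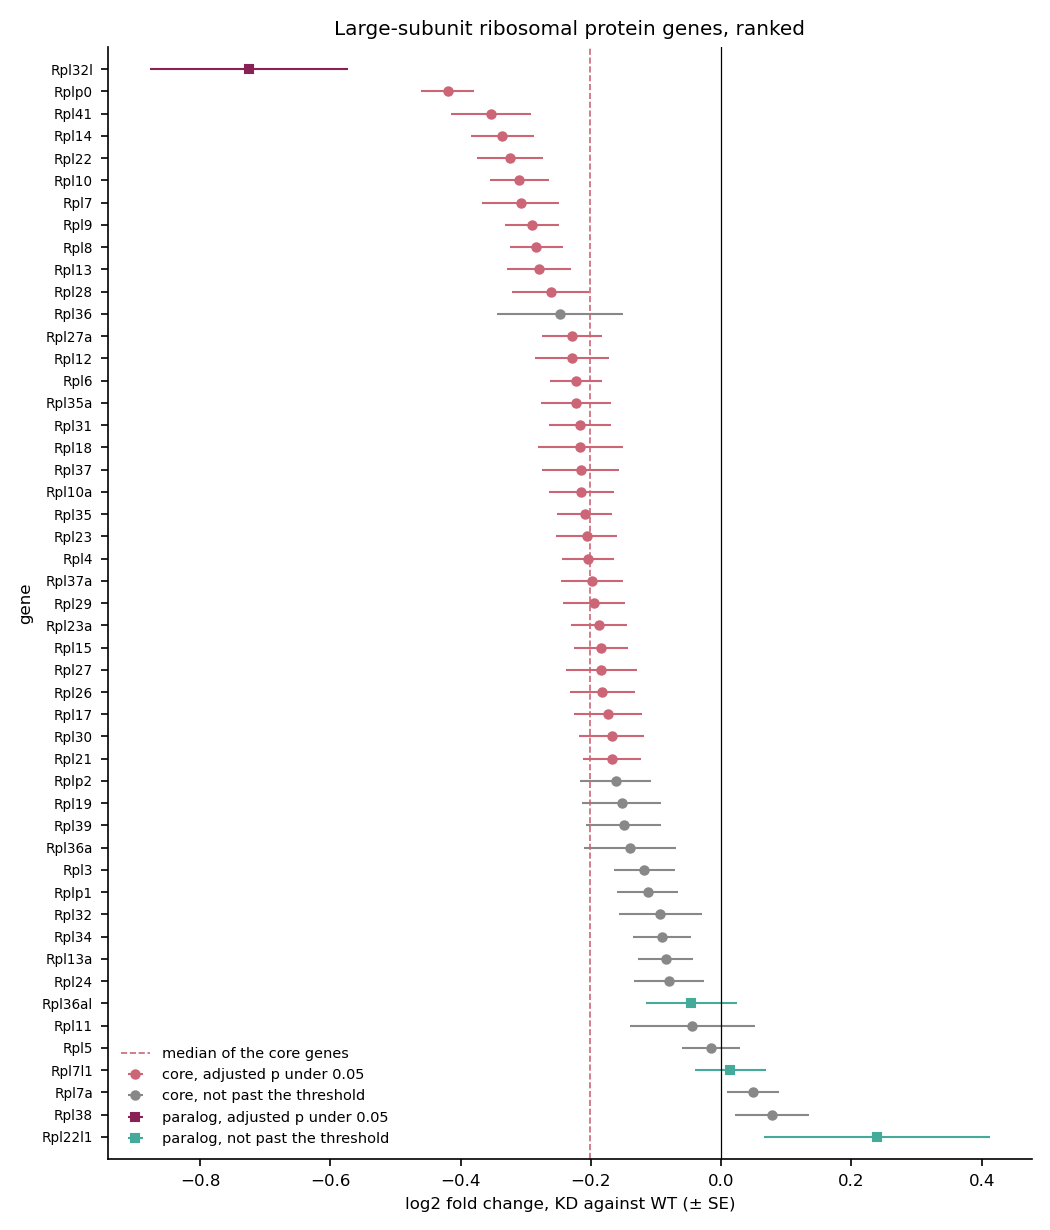
Log2 fold change of KD against WT (horizontal axis) for 49 of the 50 members tested, ranked, with bars for ± 1 SE. Circles are core genes and squares paralogs, the dashed line is the median of the core genes at -0.20, and the solid line marks no change: 45 of the 49 points lie left of it, with Rpl32l and Rplp0 farthest left and Rpl7l1, Rpl7a, Rpl38 and Rpl22l1 right of it.

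The spread of the log2 fold changes within the subunit was small. Over the 46 core genes the SD was 0.10, against a median SE of 0.05 for a single gene, and 32 of the 46 (69.6%) lay within 0.1 of the core median. To ask which genes departed from the subunit as a whole, the edgeR fit over all genes was repeated with the summed counts of the core genes as library size. This test was added after seeing the data, and each core gene is itself a part of the sum. Relative to the subunit, 2 members were lower, where 3.10% of all genes tested were, and 4 were higher, where 40.0% of all genes tested were. Rplp0 was lower (-0.22, SE 0.05, adjusted p = 0.00543), and Rpl38 (0.28, SE 0.06, adjusted p = 0.00538), Rpl7a (0.25, SE 0.05, adjusted p = 0.00316) and Rpl5 (0.19, SE 0.05, adjusted p = 0.0135) were higher. The paralogs Rpl32l (-0.52, adjusted p = 0.0244) and Rpl7l1 (0.22, adjusted p = 0.0206) made up the rest. Rplp0, Rpl7a and Rpl38 kept these calls in all 10 fits run, which left out each library in turn, added the replicate block, or added length and GC offsets with and without it. Rpl32l and Rpl5 kept theirs in 8 of 10 and Rpl7l1 in 5 of 10, with adjusted p up to 0.0841, 0.0814 and 0.0710. Without WT library 2 none of these 3 was called, and without KD library 1 neither Rpl32l nor Rpl7l1 was. With the length and GC offsets, on all libraries, Rpl5 and Rpl7l1 were not called (adjusted p = 0.0814 and 0.0710). The other 42 core genes were not called either way in this fit.

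Levels differed far more between genes than between groups. Per length, mean WT levels of the core genes ran from 259 TPM in Rpl22 to 4681 TPM in Rpl41, an 18.1-fold range, with a median of 1208 TPM. The 3 most abundant over all libraries were Rpl38, Rpl41 and Rplp1. Rpl41 was at 4756, 4926 and 4361 TPM in WT and 3913, 3823 and 3844 TPM in KD, and Rplp1 at 3864, 3881 and 3710 TPM in WT and 3638, 3726 and 3782 TPM in KD. Rpl41 thus lay above Rpl38 in WT libraries 1 and 2, just below it in WT library 3, and well below it in every KD library. The TPM of such short transcripts depends strongly on the length a program assigns to them. Across the core genes the log2 fold change had a Pearson's r of -0.21 and a Spearman's rho of -0.18 with the mean CPM in WT, which is not per length (46 genes that share the same libraries). With length they were -0.24 and -0.16, and with GC content 0.05 and 0.04.

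Length and GC content were looked at because these mRNAs are short. When all genes tested were split by effective length into 5 groups of like number, 46 of the 50 members tested were in the shortest. That group had a median of -0.04 on the log2 scale, and the median rose through -0.03, -0.00 and 0.02 to 0.04 in the group of the longest. With offsets for length and GC content, an alternative added after seeing the data, the median of the members was -0.16 and 26 of the 50 were lower, where 11.9% of all genes tested were. The 6 calls lost were those of Rpl10a, Rpl35, Rpl29, Rpl27, Rpl26 and Rpl30. On log2(TPM + 1) with limma-trend, 19 members were lower and the median was -0.13, against 0.05 over all genes tested. The share of all genes called in that fit is not given here, so the count is not read as particular to the members.

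The counts of 10 core genes were fractional in at least 1 library, and in 6 of these (Rpl31, Rpl37, Rpl23, Rplp2, Rpl19 and Rpl5) in all 6. Since pseudogenes of ribosomal protein genes are numerous, these values depend on how reads were divided. Rpl31 was at 368, 355 and 342 CPM in WT and 308, 294 and 315 CPM in KD, and Rpl23 at 239.1, 247.7 and 227.8 CPM in WT and 209.1, 206.4 and 203.8 CPM in KD. Rpl37 was at 141.7, 134.2 and 141.4 CPM in WT and 127.1, 110.8 and 121.3 CPM in KD. In all 3 the groups were apart, whereas those of Rpl19 and Rpl5 overlapped. Rpl21 was at 478.7, 479.4 and 480.5 CPM in WT and 433.1, 407.9 and 440.1 CPM in KD, and Rpl27 at 157.7, 158.9 and 149.9 CPM in WT and 145.0, 130.1 and 135.7 CPM in KD. Rpl34 was at 164.8, 163.7 and 157.8 CPM in WT and 149.0, 151.9 and 155.8 CPM in KD, which is a narrow gap. Over the 36 core genes whose counts were whole in every library, 25 were lower and 0 higher, against 11.9% and 12.0% of all genes tested. DESeq2 called 24 and 0, and 29 and 0 passed an unadjusted p of 0.05. All KD libraries lay below all WT libraries in 30, against 20.6% of all genes, and the median was -0.21. Whole counts do not show that no reads were divided, and the part of read division in the fall was not tested. Rpl37rt, a listed gene related to Rpl37 that the rule leaves out, fell by 0.56 on the log2 scale (adjusted p = 0.00815). In the annotation (GENCODE M21, GRCm38), exons of 8 members overlap exons of another listed gene on the opposite strand (Rpl12, Rpl15, Rpl18, Rpl23a, Rpl28, Rpl31, Rpl32 and Rpl35), and whether the counting used strand is not given in the sources used here.

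Of the 4 paralogs tested, 1 was lower, against 11.9% of all genes tested, and their median was -0.02 on the log2 scale. The values ran from -0.73 to 0.24, and 4 genes are too few to describe a shift of the paralogs as a group. How far they can be told from their core genes by sequence bears on how reads can be assigned. The pairs below are those of 3 of the 4 paralogs tested, shown because they run from nearly alike to clearly different, and the pair of Rpl7l1, which is the least alike, is not shown. Each line gives the first coding bases, read from the GENCODE M21 transcripts, or for Rpl32l the aligned bases of a transcript that GENCODE does not list as coding, with capitals where the aligned pair differs (gaps are not shown).
Rpl32: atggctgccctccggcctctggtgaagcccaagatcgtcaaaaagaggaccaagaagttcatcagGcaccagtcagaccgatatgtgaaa
Rpl32l: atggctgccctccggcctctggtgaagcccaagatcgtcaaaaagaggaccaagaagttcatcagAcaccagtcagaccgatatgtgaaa
Rpl36a: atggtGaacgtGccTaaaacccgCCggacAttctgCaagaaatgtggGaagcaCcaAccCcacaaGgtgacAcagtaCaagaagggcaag
Rpl36al: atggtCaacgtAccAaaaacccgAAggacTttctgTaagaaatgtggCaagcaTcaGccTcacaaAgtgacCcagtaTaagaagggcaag
Rpl22: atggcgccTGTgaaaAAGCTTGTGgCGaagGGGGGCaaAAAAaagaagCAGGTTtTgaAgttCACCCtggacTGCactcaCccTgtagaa
Rpl22l1: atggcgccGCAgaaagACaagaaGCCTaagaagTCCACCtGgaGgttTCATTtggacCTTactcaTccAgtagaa

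Rpl32l is 96.0% identical to Rpl32 over the aligned bases, with a stretch of 94 bases in which they do not differ, so a read can belong to either. Rpl36al is 87.9% identical to Rpl36a with no shared stretch over 24 bases, and Rpl22l1 68.2% identical to Rpl22. Rpl39l, Rpl3l and Rpl7l1 are 85.3%, 73.3% and 54.1% identical to their core genes.

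Rpl32l (Entrez Gene 621697) showed the largest fall of all members, from 4.49, 5.0 and 4.55 CPM in WT to 2.53, 2.93 and 3.03 CPM in KD (-0.73, SE 0.15, adjusted p = 0.0107). These are 74, 81 and 73 counts in WT and 42, 48 and 50 in KD, all whole, and the groups did not overlap. RefSeq lists it as protein-coding (chr10:20208439-20209030, GRCm38) and GENCODE as a processed pseudogene. It lies on the plus strand within the span of Map7, a gene for a microtubule-binding protein on the same strand, and overlaps none of its exons. Map7 moved the other way, from 7.29 ± 0.90 to 11.1 ± 1.69 CPM (0.60, adjusted p = 0.0196). Rpl32, the core gene, was at 207.6, 193.1 and 209.9 CPM in WT and 204.0, 175.5 and 192.9 CPM in KD. Those groups overlapped, and Rpl32 did not pass (-0.09, SE 0.06, adjusted p = 0.315). How reads were divided between Rpl32, Rpl32l and other copies was not tested.

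The other paralogs did not pass the threshold. Rpl36al, which is close to Rpl36a and widely expressed, was at 49.4, 48.4 and 44.5 CPM in WT and 44.6, 43.6 and 49.7 CPM in KD (-0.05, SE 0.07, adjusted p = 0.669). Rpl7l1, which encodes a protein of ribosome precursors, was at 62.2, 60.1 and 59.4 CPM in WT and 63.6, 61.6 and 58.2 CPM in KD (0.01, SE 0.05, adjusted p = 0.877). In both genes the groups overlapped. Rpl22l1 was at 8.38, 6.97 and 5.11 CPM in WT and 8.24, 7.57 and 8.37 CPM in KD (0.24, SE 0.17, adjusted p = 0.348), and its WT libraries spread over a wider range than the gap between the means.

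The last pair was nearly undetected. Rpl3l, the form of Rpl3 in heart and skeletal muscle, had 2, 4 and 2 counts in WT and 0, 1 and 2 in KD. Rpl39l, the form of Rpl39 in male germ cells, had 0, 0 and 2 counts in WT and 2, 0 and 0 in KD. A count of 0 in one library allows up to 3 counts, or between 0.182 and 0.184 CPM, which covers counting error only. No fold change is given for these genes.

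**Figure D4:**
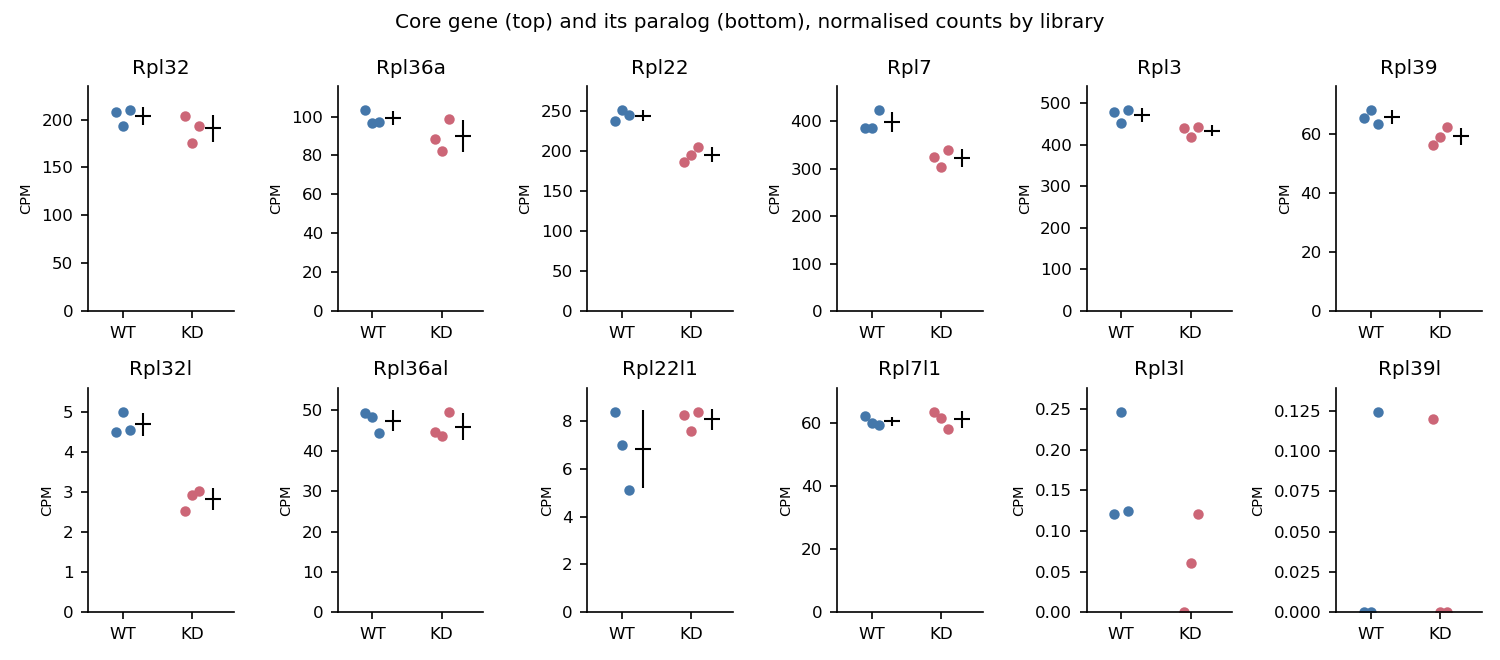
Normalised counts (CPM, vertical axes from 0, each with its own scale) of 6 core genes (top row) and of the paralog of each (bottom row) in the 3 WT and 3 KD libraries, with bars for the mean ± SD where the gene was tested. Rpl32l is apart between groups while Rpl32 overlaps, Rpl22 is apart while Rpl22l1 overlaps, and Rpl3l and Rpl39l stay under 0.25 CPM.

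Other genes of the ribosome and of translation were compared by their counts and medians. Of the 32 small-subunit genes, 20 were lower and 0 were higher, against 11.9% and 12.0% of all genes tested. Their median was -0.24 on the log2 scale. DESeq2 called 20 lower and 0 higher, and 24 were lower and 0 higher at an unadjusted p of 0.05. Rpsa, which the study chose as a target in part on these libraries, had a value of -0.60 (adjusted p = 1.23e-04), a larger fall than any core gene of the large subunit. The 49 genes of the mitochondrial large subunit, a separate ribosome, had a median of 0.03. Among them 0 were lower and 4 higher, neither of which exceeds those shares of all genes. DESeq2 called 0 lower and 3 higher, and 2 were lower and 5 higher at an unadjusted p of 0.05. Whether these lists differ from the large subunit was not tested.

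**Figure D5:**
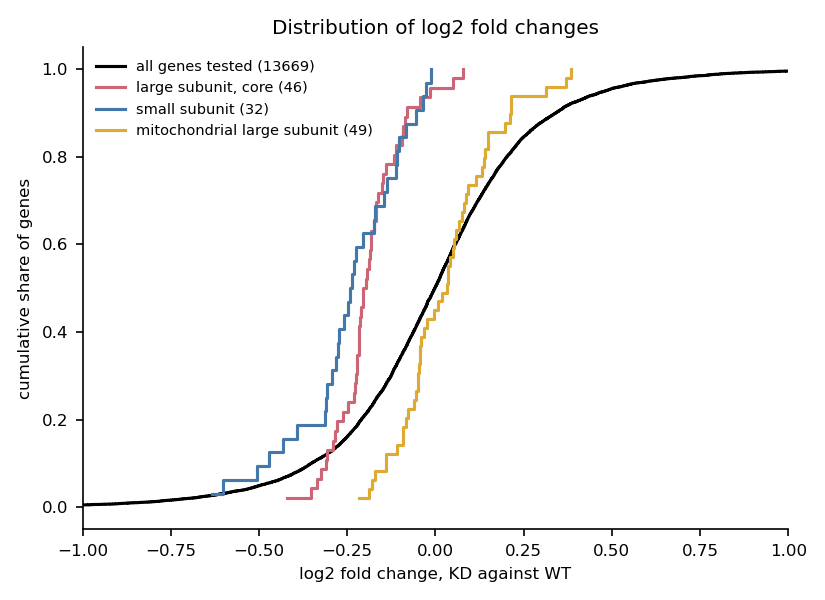
Cumulative share of genes (vertical axis) by log2 fold change of KD against WT (horizontal axis, from -1 to 1) for all genes tested, the core large-subunit genes, the small-subunit genes and the mitochondrial large-subunit genes, with the number of genes in brackets. The cytosolic subunits lie left of all genes around their medians (-0.20 and -0.24), and the mitochondrial genes do not (0.03).

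The factors that build the large subunit were called about as often as genes in general in the downward direction. Of 34 assembly factor genes, 4 were lower (Zfp622, Senp3, Grwd1 and Nsa2), which is 11.8%, against 11.9% of all genes tested. A rise was called for 2 (Noc2l and Nvl), against 12.0% of all genes, and the median was -0.01. DESeq2 called 2 lower and 2 higher. Zfp622, a late cytoplasmic factor, was at -0.38 (adjusted p = 0.0131). Senp3, a SUMO protease of the nucleolus, was at -0.36 (adjusted p = 0.0029), and Nvl, an ATPase, at 0.21 (adjusted p = 0.0268). Of 19 other genes whose mRNAs are known for TOP motifs, 10 were lower and 3 were higher, with a median of -0.16. Translation factors led the falls, among them Eef1g (-0.53), which the study also chose as a target in part on these libraries, Eif3f (-0.49) and Eef1b2 (-0.46). The 3 that rose were Nap1l1 (0.33), Npm1 (0.22) and Hnrnpa1 (0.21), which act in chromatin assembly, the nucleolus and splicing.

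Since many of these mRNAs are known for a TOP motif, the bases around the annotated start of transcription were read from RefSeq for GRCm38.p6. In a window of 15 bases on each side of the start, on the sense strand, a run of at least 6 bases that are all C or T was found in 24 of the 40 members with a window (60%) and in 32.7% of 27025 genes. Such a run is a description of letters near an annotated start, not a measured start. It can lie wholly before the start and so outside the annotated mRNA, as in Rpl4, Rpl13 and Rpl31. The counts of runs are therefore not counts of TOP motifs. Among the core genes it was found in 14 of 23 that were lower and in 7 of 11 that were not called. The median log2 fold change was -0.21 in the 21 with a run and -0.20 in the 13 without. The windows of the largest falls and of the smallest falls or rises among core genes with a window are printed to show that both hold genes with and without a run. Capitals mark the longest run.
Rplp0: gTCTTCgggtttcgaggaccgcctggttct
Rpl41: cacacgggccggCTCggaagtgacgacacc
Rpl14: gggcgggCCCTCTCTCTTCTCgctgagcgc
Rpl22: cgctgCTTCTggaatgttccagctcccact
Rpl11: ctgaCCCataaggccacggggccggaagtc
Rpl5: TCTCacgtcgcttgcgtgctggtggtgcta
Rpl7a: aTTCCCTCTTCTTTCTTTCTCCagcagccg
Rpl38: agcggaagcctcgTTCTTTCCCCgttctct

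These are chr5:115559452-115559481 (plus strand) for Rplp0, chr10:128549154-128549183 (minus) for Rpl41, chr9:120571502-120571531 (plus) for Rpl14 and chr4:152324421-152324450 (plus) for Rpl22. They are chr4:136053379-136053408 (minus) for Rpl11, chr5:107900513-107900542 (plus) for Rpl5, chr2:26910792-26910821 (plus) for Rpl7a and chr11:114668565-114668594 (plus) for Rpl38. Among these 8 windows, the longest run, of 21 bases, was in Rpl7a, which did not fall, and the next, of 14 bases, in Rpl14, which did.

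Markers of cell types were set beside the share of all genes tested that were called higher (12.0%) or lower (11.9%). Of 10 neural progenitor markers, 4 were higher in KD (Sox1, Hes1 and Pax6 among them) and 0 were lower (3 and 0 by DESeq2, 4 and 0 at an unadjusted p of 0.05), and their summed level was 1430 to 1506 CPM in WT and 1594 to 1843 CPM in KD. Of 8 neuron markers, 1 was higher (Dcx) and 1 lower (Stmn2), which is near those shares. Their median log2 fold change was 0.11 and 2 of the 8 values were negative. Their sums were 5615 to 6281 CPM in WT and 5537 to 6317 CPM in KD. Of 11 markers of blood, immune, vessel, mesenchymal and glial cells, 10 were listed, 5 were tested and 1 was higher (Pdgfrb). The sums of those listed were 21.7 to 30.3 CPM in WT and 24.6 to 26.6 CPM in KD. The part of cell makeup in the fall of the large-subunit mRNAs was not tested.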

How the data were processed

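RNA was sequenced on the DNBSEQ platform from 3 WT and 3 KD libraries, grouped by their titles. The submitters' processing notes name HISAT2 2.2.1, Bowtie2 2.4.5, RSEM 1.3.1 and the builds GRCm38 and mm10, without their roles. The estimated counts per gene were deposited by the authors with 2 decimals, unnormalised, and the deposited TPM values were scaled by the authors to 1000000 per library. The 6 FPKM columns and 6 columns of group averages were not used. The Ctrl columns were matched to the WT titles by number.

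The members, lists and tests were chosen with earlier results of these data known. Every member is named except 1 that is not reported here. Values by library are given for the 5 largest falls, the 5 smallest falls or largest rises, the 3 most abundant, the stalk genes, Rpl5 and Rpl11, the paralogs, and genes with fractional counts whose groups do not overlap. Of the companion genes, 1 is not reported here.

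Rounded counts went into edgeR 4.0.16 (R 4.3.3) for the quasi-likelihood F-test after filterByExpr (minimum count 10) and TMM scaling, and SE was computed as |log2 fold change| over the square root of F. The script was checked on simulated data. Within groups, replicates differed by 4.43 to 8.66 chi-square per degree of freedom, so all 6 were counted as separate. Same-numbered libraries deviated together (correlations over genes of 0.35, 0.32 and 0.18, and -0.28 to -0.02 otherwise), so the numbers pair them. What a number marks is not labelled, the series text speaks of 3 sequencing batches, and p-values measure the spread between these libraries. Alternatives were RLE, upper quartile and library-total scaling, TMM without ribosomal protein genes, 2 other filters, DESeq2 1.42.0, limma-voom and limma-trend (limma 3.58.1, log2(TPM + 1)), unrounded counts, pseudogene counts added, stricter thresholds, the replicate block and leaving out each library. Leaving out both libraries numbered 2, offsets for length and GC content (mgcv 1.9.3) and the fit relative to the core sum were added after seeing the data.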

Additional observations from a re-analysis of the deposited data

How the results depend on the processing

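No member called lower changed its sign under any of the 22 alternatives, and the median stayed negative in all that give one. Of the 32 members called lower, only Rplp0 stayed past the threshold under every alternative. The call of Rpl30 was lost most often, in 13 of 22. Against 32 members lower, limma-trend on log2(TPM + 1) gave 19 (median -0.13), an adjusted p under 0.01 gave 14, and an added fold change of at least 1.2 gave 10. For these settings the share of all genes is not given here, so the counts are not read as particular to the members. Leaving out 1 library gave 15 to 31, where 5.78% to 11.5% of all genes tested were lower. Leaving out both libraries numbered 2 gave 1. The replicate block gave 36 and, as the libraries are paired, added Rpl36, Rplp2, Rpl19 and Rpl3. It changed no call among the companion genes Rpsa and Eef1g. With the length and GC offsets and the replicate block, 1 member (Rpl38) was higher, against 0. Relative to the core sum, against 2 lower and 4 higher, the replicate block gave 4 lower. It also added Rpl11 and Rpl22l1 to those higher (adjusted p = 0.0206 and 0.00828). The offsets gave 2 higher (Rpl7a and Rpl38), both together gave 5 lower and 9 higher, and leaving out 1 library gave 1 to 3 lower and 2 to 5 higher. Shares of all genes under these settings are not given here. Among genes not called, values changed sign for Rpl36al (0.023 on TPM, 0.0051 without both libraries numbered 2, and -0.10 to 0.0051 over the fits that leave out libraries), Rpl11 (0.0093 with offsets and block, 0.030 on TPM, and -0.15 to 0.038 leaving out 1 library), Rpl5 (0.0060 by library totals, 0.044 on TPM, and -0.034 to 0.011 leaving out 1 library) and Rpl7l1 (-0.0066 by upper quartile, and -0.015 to 0.050 leaving out 1 library). The cause was not tested. Small changes of single genes are limited by the 3 libraries per group more than by depth, since the least counted core gene had 823 counts in its lowest library.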
